A study of Mus musculus with 11 samples.

Results

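Azoramide was set against DMSO in mouse pancreatic islets labelled as knockout for Zzef1 in beta cells. All libraries with that label were taken, 3 with azoramide and 2 with DMSO, which is 5 of the 11 libraries of the study, and every expressed gene was compared. The labels name the genotype βZKO_Mip. They give no account of what the suffix Mip means or of how the deletion was driven. The mice were 16 weeks old and had been on a high-fat diet for 4 weeks, as had the littermate controls that make up the other 6 libraries, 3 with azoramide and 3 with DMSO. Islets received azoramide at 10 µM or DMSO for 24 h. Every sample pooled islets of at least 3 mice of the same genotype, whether samples share mice is not stated, and p-values measure only the spread between these pools.

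Azoramide is a small molecule known for acting on the unfolded protein response, the set of pathways by which a cell adjusts the folding capacity of its endoplasmic reticulum (ER). Beta cells fold and process large amounts of proinsulin, and their ER chaperones, calcium pumps and stress sensors are often studied in obesity and diabetes. Zzef1 encodes a large protein with zinc finger and EF-hand domains.

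The 5 libraries held 18080593 to 19461579 counts, and levels are given as CPM, counts scaled to 1000000 per library after TMM normalization. The defining islet hormone genes Ins1, Ins2 and Gcg were abundant in every library. Azoramide library 3 stood apart from the other 2. In a principal component analysis of the 5 libraries the first component held 53.4% of the variance and placed the DMSO libraries at 32.7 and 41.6, azoramide libraries 1 and 2 at -32.9 and -37.2, and azoramide library 3 at -4.2. List counts, and genes on which it bears, are therefore also given without it, and of 272 called genes named by rule 270 kept their call. The rule takes small p and large changes in these same libraries, which favours that count. Mitochondrially encoded genes took 5.19% and 5.17% of counts with DMSO and 7.8%, 7.6% and 7.98% with azoramide.

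Acinar enzyme genes, a sign of exocrine tissue, summed to 3158 and 800.3 CPM with DMSO and to 4284, 8537 and 1445 CPM in azoramide libraries 1, 2 and 3, so that the groups overlapped, and 0 of 27 tested members passed the edgeR test. Of 20 macrophage markers 6 rose, and their sum was 200.6 and 207.7 CPM with DMSO and 363.1, 282.6 and 196.6 CPM with azoramide. Leaving out 1 library moved this count to 10 (azoramide library 3), 3 (azoramide library 2), 1 (DMSO library 1) and 2 (DMSO library 2). Of 18 endothelial markers 7 fell, and their sum was 488 and 503.4 CPM against 360.6, 396.2 and 413.8 CPM, with 4 falling without azoramide library 1 and 3 without DMSO library 2. Ductal markers summed to 2348 and 2124.5 CPM with DMSO and 3167, 3199 and 2491 CPM with azoramide, and of 14 tested 4 rose and 1 fell, with 1 or 2 rising without azoramide library 1 or 2 or either DMSO library. With a correction for transcript length and GC content, described below, 2 macrophage markers rose (median 0.40, against 0.59), 3 endothelial markers fell (median -0.17, against -0.34) and 2 ductal markers rose and 1 fell. The T cell genes Cd3e, Cd3d, Cd3g and Cd8a had 0 counts in all 5 libraries. In whole islets fewer cells of a type and less RNA per cell cannot be told apart.

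Zzef1, the gene named by the label (chromosome 11, 72796226 to 72927120, plus strand, GRCm38), was read in every library, at 79.4 and 83.5 CPM with DMSO and 72.1, 77.7 and 68.7 CPM with azoramide. The azoramide libraries were all lower than the DMSO libraries, but the difference did not pass the test (log2 fold change -0.16, SE 0.09, adjusted p = 0.153 by edgeR). The control libraries held 85.4 to 109.7 CPM with DMSO, above the labelled knockout libraries, and 64.3 to 68.1 CPM with azoramide, below them. Counts over a whole gene in whole islets do not check a deletion in beta cells, so the libraries are called labelled knockout throughout. The direction depended on the scaling: once trends with exonic length and GC content were removed as an offset, the value was 0.19 (edgeR adjusted p = 0.165), and with plain library totals it was -0.32 and passed (edgeR adjusted p = 0.00649).

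Azoramide libraries differed from DMSO libraries across a large part of the transcriptome. Of 15093 genes tested, 6006 (39.8%) passed at an adjusted p under 0.05 in edgeR's quasi-likelihood test, 3014 rising (20%) and 2992 falling (19.8%). Most changes were small: 1127 of the called genes changed by less than 1.25-fold, 2637 by 1.25-fold to 1.5-fold, 1773 by 1.5-fold to 2-fold, 406 by 2-fold to 4-fold and 63 by 4-fold or more. At least 2-fold changes numbered 271 rising (1.8% of genes tested) and 198 falling (1.31%). The 3 azoramide libraries did not overlap the 2 DMSO libraries in 9291 genes (61.6%), being higher in 4559 (30.2%) and lower in 4732 (31.4%). These percentages are the background for the counts of gene groups below, whose median over all genes was 0.00.

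**Figure D1:**
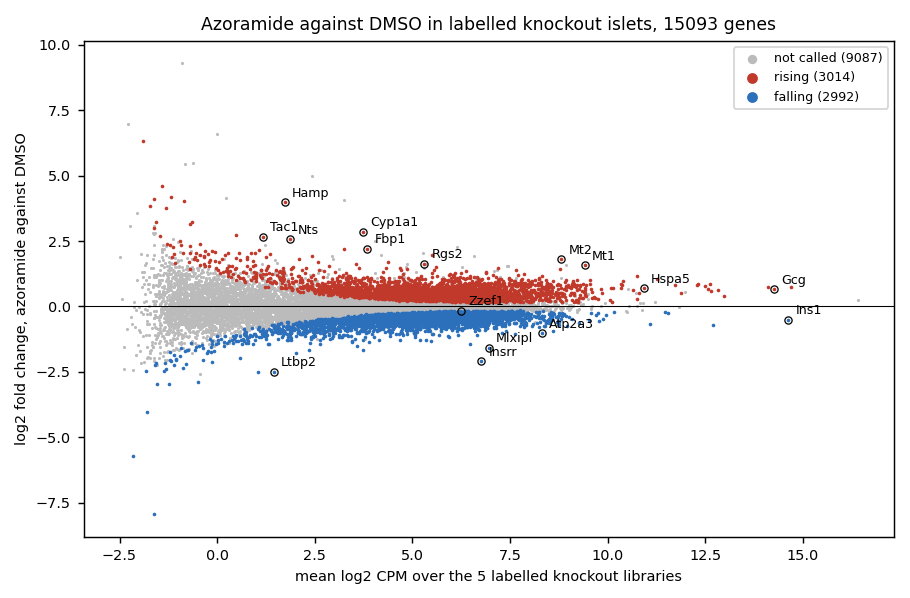
Log2 fold change of azoramide against DMSO in the 5 labelled knockout libraries (vertical axis) by mean log2 CPM (horizontal axis), each point a gene. Red points are the 3014 rising and blue points the 2992 falling genes past the edgeR threshold, and grey points are the genes that did not pass.

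For lists, counts of rising and falling members, in that order, are repeated without azoramide library 3. They are repeated without any other library, or with the length and GC offset, where 1 of them is at least 4 and moved by over 1.5 times, or where the offset moved the median by over 1.5 times or turned its sign. Values of single called genes that the offset moved by over 1.5 times are given with it. Leaving out either DMSO library leaves 1 in that group, so a call lost there can reflect fewer libraries and not a smaller change. Over all genes, falling members numbered 1941 without DMSO library 2, the only such count that moved so far when 1 library was left out.

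Without azoramide library 3, 3127 genes rose (20.8% of 15031) and 3075 fell (20.5%), and 701 changed by at least 2-fold against 469 with it. Relative to the DMSO mean, the median of the rising genes was 0.53, 0.53 and 0.44 on the log2 scale in azoramide libraries 1, 2 and 3, and that of the falling genes -0.51, -0.52 and -0.39. Of the 3 azoramide libraries, library 3 was the nearest to DMSO in 61.5% of rising and 68% of falling genes. Its share over all genes tested was 50.6%. Directions hold relative to TMM factors. Scaling by total counts alone moved the overall median by -0.16 on the log2 scale, and 1866 of 6408 called genes then rose (29.1%, against 50.2%). With the length and GC offset 1972 genes rose (13.1%) and 1757 fell (11.6%). The offset is fitted in each library without regard to treatment. It therefore also removes any change with azoramide that follows length or GC, and cannot tell such a change from a bias.

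Cyp1a1 and the metallothioneins Mt1 and Mt2 combined a large change with little spread. Cyp1a1, a cytochrome P450 that is the classic target of the aryl hydrocarbon receptor (chromosome 9, 57687928 to 57703824, plus strand), was at 3.8 and 4.27 CPM with DMSO and 28.1, 27 and 33.1 CPM with azoramide. All 3 azoramide libraries were high and the DMSO libraries low, a 7.27-fold rise (log2 fold change 2.86, SE 0.19, adjusted p = 9.4e-08 by edgeR). Mt2, a small protein that binds zinc and copper (chromosome 8, 94172664 to 94173568, plus strand), was at 213 and 212 CPM with DMSO and 833, 727 and 667 CPM with azoramide (log2 fold change 1.80, SE 0.09, adjusted p = 7.9e-09 by edgeR). Its neighbour Mt1 (chromosome 8, 94179082 to 94180327, plus strand) was at 349 and 357 CPM with DMSO and 1123, 1101 and 953 CPM with azoramide (log2 fold change 1.58, SE 0.09, adjusted p = 7.9e-09 by edgeR). In both the lowest azoramide library was number 3, and the groups lay far apart. Without that library the values were 2.77, 1.87 and 1.66.

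The bases before the start sites of these genes are shown with matches to the motifs named after their best known regulators, together with those of the neuropeptide gene Nts and the ER chaperone gene Hspa5, described below. Each is the 250 bases before the RefSeq start site (GRCm38.p6), 5′ to 3′ on the gene's strand, with the matches named for each gene in capitals. Cyp1a1 lies on the plus strand at chr9:57697363-57697612, with the xenobiotic response element core GCGTG at -54 and a TATA box (TATAAA) at -30; the GENCODE start of this gene lies 9685 bases from the RefSeq start, against 7 to 120 bases for the other 4 genes. Mt2 lies on the plus strand at chr8:94172368-94172617, with metal response elements (TGCACNC or TGCGCNC on either strand) at -223, -128 and -50. Mt1 lies on the plus strand at chr8:94178839-94179088, with such an element at -23. Nts lies on the minus strand at chr10:102490419-102490668, with an AP-1 site (TGACTCA or TGAGTCA) at -207. Hspa5 lies on the plus strand at chr2:34771840-34772089, with an ER stress response element (CCAAT, 9 bases, CCACG) at -65.
Cyp1a1: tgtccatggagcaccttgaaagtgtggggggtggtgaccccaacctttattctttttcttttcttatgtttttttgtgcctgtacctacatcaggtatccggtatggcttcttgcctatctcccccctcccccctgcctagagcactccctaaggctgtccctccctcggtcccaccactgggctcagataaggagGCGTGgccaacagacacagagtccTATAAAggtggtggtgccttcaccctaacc
Mt2: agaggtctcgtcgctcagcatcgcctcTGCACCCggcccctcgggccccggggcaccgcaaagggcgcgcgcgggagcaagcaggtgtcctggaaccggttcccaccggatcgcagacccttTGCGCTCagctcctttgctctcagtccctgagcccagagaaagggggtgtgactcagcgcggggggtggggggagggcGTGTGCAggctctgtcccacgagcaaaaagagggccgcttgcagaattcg
Mt1: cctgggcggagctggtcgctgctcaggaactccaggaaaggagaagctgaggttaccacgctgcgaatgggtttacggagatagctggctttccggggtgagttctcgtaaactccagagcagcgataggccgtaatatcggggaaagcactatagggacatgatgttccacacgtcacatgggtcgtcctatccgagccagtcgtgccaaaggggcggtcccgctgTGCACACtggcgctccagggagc
Nts: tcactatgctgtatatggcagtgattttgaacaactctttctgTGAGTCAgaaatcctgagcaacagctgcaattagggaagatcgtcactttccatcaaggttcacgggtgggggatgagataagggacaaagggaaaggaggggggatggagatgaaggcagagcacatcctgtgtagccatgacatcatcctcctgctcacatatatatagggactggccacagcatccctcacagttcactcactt
Hspa5: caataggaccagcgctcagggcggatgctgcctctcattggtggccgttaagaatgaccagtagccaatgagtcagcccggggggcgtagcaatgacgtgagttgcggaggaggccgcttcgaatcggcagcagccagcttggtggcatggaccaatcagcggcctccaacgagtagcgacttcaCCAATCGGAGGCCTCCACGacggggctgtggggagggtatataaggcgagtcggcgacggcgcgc

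The wider groups around these genes were called at about the background rate. Of 10 tested genes listed as aryl hydrocarbon receptor targets, 3 rose and 1 fell, with a median log2 fold change of -0.04. Counts of 3 and 2 (median 0.11) were found without azoramide library 3, and 1 and 1 (median -0.11) with the offset. Nqo1, a quinone reductase, was at 21.2 and 16.1 CPM with DMSO and 27, 26.8 and 26.5 CPM with azoramide (log2 fold change 0.52, SE 0.12, adjusted p = 0.00263 by edgeR). It was at 0.00 with the length and GC offset, and at 0.33 (edgeR adjusted p = 0.0924) without DMSO library 2. Tiparp, an ADP-ribosyltransferase induced by the receptor, was at 22.5 and 21.7 CPM with DMSO and 28, 33.7 and 29.4 CPM with azoramide (log2 fold change 0.46, SE 0.12, adjusted p = 0.00459 by edgeR). It missed the threshold with the offset (0.13, edgeR adjusted p = 0.416) and without DMSO library 2 (0.43, edgeR adjusted p = 0.0516). Of 12 tested genes of zinc handling, only Mt1 and Mt2 rose and 2 fell, with a median of -0.10. The latter were Mtf1, the metal-sensing transcription factor that acts on metal response elements (-0.34, SE 0.08), and the zinc importer Slc39a10 (-0.53, SE 0.12). Mtf1 was not called without DMSO library 2 (-0.29) or with the offset (-0.12), and Slc39a10 not without DMSO library 1 (-0.41).

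Several secreted peptides were among the 20 genes that rose most. Nts, which encodes neurotensin, was at 1.69 and 0.863 CPM with DMSO and 7.78, 10.7 and 4.27 CPM with azoramide (log2 fold change 2.57, SE 0.38, adjusted p = 7.0e-05 by edgeR; 2.85 without azoramide library 3). Tac1, the precursor of substance P, was at 0.513 and 0.911 CPM with DMSO and 6.38, 3.67 and 3.7 CPM with azoramide (log2 fold change 2.67, SE 0.59, adjusted p = 0.00289 by edgeR). Ghrl, which encodes the hormone ghrelin, was at 1.18 and 0.911 CPM with DMSO and 3.59, 5.06 and 2.96 CPM with azoramide (log2 fold change 1.89, SE 0.37, adjusted p = 5.5e-04 by edgeR). In these 3 genes every azoramide library was above both DMSO libraries, although the levels were low. Galanin (Gal), chosen after its values were seen because its level lay under the limit of the naming rule, was at 0 and 0.144 CPM with DMSO and 1.34, 2.06 and 0.512 CPM with azoramide (log2 fold change 4.02, SE 1.08, adjusted p = 0.00796 by edgeR). It missed the threshold without DMSO library 1 (3.12, edgeR adjusted p = 0.0776), and the DMSO libraries held 0 and 3 counts. The offset moved Nts to 1.68.

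Genes of signalling and stress also stood among the 20. Rgs2, a regulator that shortens G protein signalling, was at 19.5 and 21.1 CPM with DMSO and 75.6, 68.9 and 44.5 CPM with azoramide (log2 fold change 1.63, SE 0.21, adjusted p = 1.9e-04 by edgeR; 1.83 without azoramide library 3). S100a6, a calcium-binding protein, was at 3.49 and 3.98 CPM with DMSO and 11.3, 11.7 and 10.2 CPM with azoramide (log2 fold change 1.56, SE 0.19, adjusted p = 7.0e-06 by edgeR). Both kept their calls in all 19 alternatives. The stress-inducible HSP70 genes Hspa1a and Hspa1b, near-identical neighbours whose reads may be split between them, were at 2.67 and 3.4 CPM with DMSO and 5.15, 13.7 and 10.7 CPM with azoramide and at 3.49 and 1.49 CPM with DMSO and 5.58, 12.4 and 10.7 CPM with azoramide. Azoramide library 1 was the lowest of the treated libraries for each. Their log2 fold changes were 1.69, SE 0.44 and 1.95, SE 0.53 (edgeR adjusted p = 0.0103 and 0.0165). Without DMSO library 2 neither passed (1.88 and 1.45), nor did Hspa1a without DMSO library 1 (1.53). Lama3, a laminin chain, was at 5.03 and 2.64 CPM with DMSO and 20.6, 16.2 and 16 CPM with azoramide (log2 fold change 2.21, SE 0.66, adjusted p = 0.0327 by edgeR), and Diras2, a small GTPase, at 23.8 and 16.7 CPM with DMSO and 90.9, 92.5 and 55.1 CPM with azoramide (log2 fold change 1.98, SE 0.54, adjusted p = 0.0221 by edgeR). Leaving out azoramide library 1 or 2 or either DMSO library ended the call of both, with log2 fold changes of 1.81 to 2.74 for Lama3 and 1.74 to 2.25 for Diras2; for Lama3 so did leaving out azoramide library 3 (2.27, edgeR adjusted p = 0.0526), Control_Azoramide 1 or 3, or Control_DMSO 1 (2.21, 2.21 and 2.21). Dhrs9, a retinol dehydrogenase, was at 1.74 and 2.16 CPM with DMSO and 7.14, 6.67 and 6.66 CPM with azoramide (log2 fold change 1.80, SE 0.55, adjusted p = 0.0265 by edgeR) and missed the threshold without any of the 5 libraries, at 1.66 to 1.96. AA467197 was at 0.719 and 1.87 CPM with DMSO and 3.22, 4.67 and 3.47 CPM with azoramide (log2 fold change 1.53, SE 0.40, adjusted p = 0.00559 by edgeR), and was at 1.01 (not called) or 2.39 without DMSO library 1 or 2. The offset moved AA467197 to 0.78 (not called).

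In a further set of the 20, azoramide library 3 lay nearer to the DMSO libraries than libraries 1 and 2 did. This order was common: library 3 was the nearest in 77.1% of all genes that rose by at least 2-fold, against 50.6% of genes tested. Nts and Rgs2, described above, shared it. Hamp, which encodes the iron hormone hepcidin and may share reads with its near-identical copy Hamp2, was at 0.821 and 0.527 CPM with DMSO and 12.3, 16.6 and 3.19 CPM with azoramide (log2 fold change 3.98, SE 1.03, adjusted p = 0.0174 by edgeR). Fbp1, the gluconeogenic enzyme fructose-1,6-bisphosphatase, was at 6.52 and 6.37 CPM with DMSO and 38, 42.8 and 8.65 CPM with azoramide (log2 fold change 2.21, SE 0.74, adjusted p = 0.0497 by edgeR). Fgb, the fibrinogen beta chain, was at 13.3 and 8.63 CPM with DMSO and 40.5, 48.7 and 17.1 CPM with azoramide (log2 fold change 1.70, SE 0.50, adjusted p = 0.0316 by edgeR). Libraries 1 and 2 were high for all 3 genes, and library 3 was between them and DMSO. The same order held for Gem, a small GTPase that restrains calcium channels, at 6.21 and 6.09 CPM with DMSO and 21.9, 24.7 and 9.96 CPM with azoramide (log2 fold change 1.62, SE 0.47, adjusted p = 0.0275 by edgeR), and for Ceacam1, an adhesion molecule, at 29.7 and 23.8 CPM with DMSO and 89.1, 92 and 47.6 CPM with azoramide (log2 fold change 1.51, SE 0.33, adjusted p = 0.00818 by edgeR). Mmp12, a macrophage metalloelastase, was at 1.03 and 0.671 CPM with DMSO and 5.2, 4.23 and 1.82 CPM with azoramide (log2 fold change 2.14, SE 0.52, adjusted p = 0.00387 by edgeR). Without azoramide library 3 the values were 4.42 for Hamp, 2.65 for Fbp1, 2.03 for Fgb, 1.92 for Gem, 1.76 for Ceacam1 and 2.47 for Mmp12, and all 6 were called.

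Calls of these 6 genes depended on which libraries were fitted, and leaving out a DMSO library leaves 1 in that group. Without DMSO library 2 none of them passed, at 3.69 for Hamp, 2.19 for Fbp1, 1.41 for Fgb, 1.60 for Gem, 1.36 for Ceacam1 and 1.86 for Mmp12. Hamp, Fbp1, Fgb and Gem also missed the threshold without DMSO library 1 (4.33, 2.23, 2.04 and 1.63). Fbp1, Fgb and Gem did so too without azoramide library 1 (1.99, 1.59 and 1.49) or 2 (1.86, 1.40 and 1.38). Fbp1 was close to the threshold throughout and was called in 6 of 19 alternatives; it was lost at 2.21 without Control_DMSO 1, 2 or 3 and without Control_Azoramide 1 or 3. Acinar enzyme genes were also highest in azoramide libraries 1 and 2, at 4284 and 8537 CPM in sum against 1445 CPM in library 3 and 3158 and 800.3 CPM with DMSO, and their part in these values was not tested. The acinar marker Reg2, a secreted lectin of the exocrine pancreas, was at 9.44 and 0.767 CPM with DMSO and 71.2, 184 and 0.569 CPM with azoramide and did not pass (log2 fold change 4.09, SE 2.23, adjusted p = 0.196 by edgeR). Reg3b, a secreted lectin chosen after its values were seen, was at 3.85 and 0.24 CPM with DMSO and 78.8, 110.5 and 0.285 CPM with azoramide (log2 fold change 4.98, SE 2.20, adjusted p = 0.118 by edgeR). Both were high in azoramide libraries 1 and 2 and lower in library 3 than in DMSO library 1.

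**Figure D2:**
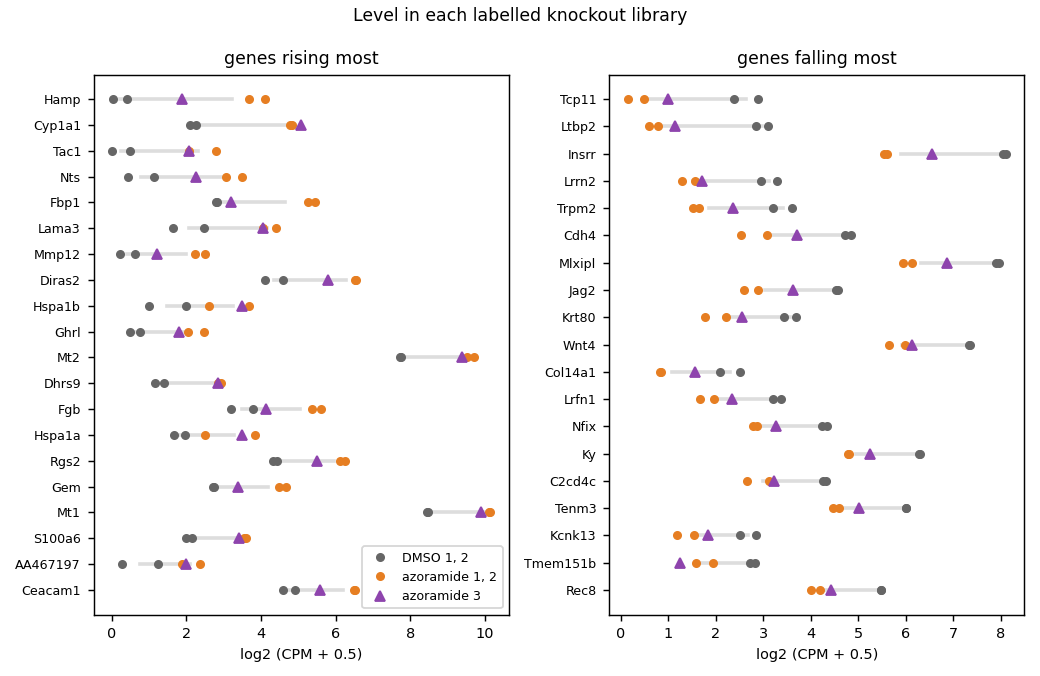
Level of the 20 genes that rose most (left) and of 19 of the 20 that fell most (right; 1 is not reported here) in each labelled knockout library, as log2 of CPM plus 0.5. Grey points are DMSO libraries, orange points azoramide libraries 1 and 2, violet triangles azoramide library 3, and the light bar joins the group means; the triangle sits near the grey points for Fbp1, Fgb and Gem and with the orange points for Cyp1a1, Mt2 and Mt1.

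Genes that fell most included receptors, adhesion molecules and a glucose-responsive transcription factor. Insrr, an insulin receptor relative known as an alkali sensor, was at 274 and 264 CPM with DMSO and 48.4, 45.9 and 93.4 CPM with azoramide (log2 fold change -2.10, SE 0.34, adjusted p = 0.00189 by edgeR). Mlxipl, which encodes the glucose-responsive factor ChREBP, was at 249 and 239.7 CPM with DMSO and 60.9, 69.9 and 116 CPM with azoramide (log2 fold change -1.57, SE 0.33, adjusted p = 0.00718 by edgeR). Wnt4, a Wnt ligand, was at 163 and 161 CPM with DMSO and 49.9, 62.3 and 69.97 CPM with azoramide (log2 fold change -1.42, SE 0.26, adjusted p = 0.00365 by edgeR). In these 3 the DMSO libraries were close to each other, all azoramide libraries were far lower, and library 3 was the least low. Ltbp2, an extracellular matrix protein of the latent TGF-beta binding protein family, was at 6.72 and 8.1 CPM with DMSO and 1.23, 1.0 and 1.71 CPM with azoramide (log2 fold change -2.49, SE 0.33, adjusted p = 2.0e-05 by edgeR). Tcp11, best known from testis, was at 6.88 and 4.7 CPM with DMSO and 0.912, 0.612 and 1.48 CPM with azoramide (log2 fold change -2.53, SE 0.34, adjusted p = 1.9e-05 by edgeR). Cdh4, the cadherin also called R-cadherin, was at 26 and 28.2 CPM with DMSO and 5.31, 8.01 and 12.6 CPM with azoramide (log2 fold change -1.65, SE 0.27, adjusted p = 9.2e-04 by edgeR). Without azoramide library 3 these 6 were at -2.51 for Insrr, -1.90 for Mlxipl, -1.53 for Wnt4, -2.72 for Ltbp2, -2.91 for Tcp11 and -2.03 for Cdh4, and they were called in all 19 alternatives.

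Other genes of the 20 that fell were also called in all alternatives. They were the Notch ligand Jag2 (-1.51, SE 0.28), the neuronal surface proteins Lrrn2 (-1.78, SE 0.32), Lrfn1 (-1.39, SE 0.22) and Tenm3 (-1.30, SE 0.16), the transcription factor Nfix (-1.36, SE 0.16), the potassium channel Kcnk13 (-1.30, SE 0.29), the meiotic cohesin subunit Rec8 (-1.29, SE 0.19), C2cd4c (-1.33, SE 0.18) and Tmem151b (-1.29, SE 0.28). All had edgeR adjusted p of 0.00189 or less. Trpm2, a cation channel, was at -1.67 and lost its call without DMSO library 2 (-1.44, edgeR adjusted p = 0.0552). Ky, a muscle cytoskeleton protein, at -1.33, did so too without DMSO library 2 (-1.32), and the keratin Krt80, at -1.45, without DMSO library 1 (-1.32). The collagen Col14a1, at -1.42, missed the threshold without azoramide library 1 or 2 or either DMSO library (-1.63 to -1.17). The offset moved Jag2 to -0.93, Nfix to -0.87, C2cd4c to -0.86 and Tmem151b to -0.81.

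Hormones of the islet did not share a direction. Ins1, an insulin gene that may share reads with Ins2, fell, with 30923 and 31567 CPM with DMSO and 21560.3, 19149.5 and 25399 CPM with azoramide (log2 fold change -0.50, SE 0.09, adjusted p = 5.3e-04 by edgeR). Ins2, the other insulin gene, was at 77406 and 79159 CPM with DMSO and 81704, 85062 and 113632 CPM with azoramide and did not pass (log2 fold change 0.26, SE 0.14, adjusted p = 0.192 by edgeR). Its azoramide libraries were above DMSO, but library 3 stood well above the other 2, and without it the value was 0.09. Iapp, the amyloid polypeptide that is secreted with insulin, was at 19148 and 20011 CPM with DMSO and 33586, 32496 and 32462 CPM with azoramide (log2 fold change 0.75, SE 0.07, adjusted p = 7.0e-07 by edgeR), and the 3 azoramide libraries were close together. Gcg, glucagon, was at 14021 and 15961 CPM with DMSO and 23639, 24722 and 22757 CPM with azoramide (log2 fold change 0.66, SE 0.08, adjusted p = 4.9e-06 by edgeR). Pyy, peptide YY, was at 988 and 974 CPM with DMSO and 1493, 1761 and 1497 CPM with azoramide (log2 fold change 0.69, SE 0.10, adjusted p = 7.4e-05 by edgeR), and Ucn3, the beta cell peptide urocortin 3, at 186 and 182 CPM with DMSO and 267, 272 and 253 CPM with azoramide (log2 fold change 0.52, SE 0.08, adjusted p = 4.8e-05 by edgeR).

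Values of some hormones depended on the correction for transcript length and GC content, and the median exonic length of the hormone list was 1070.5 bases. With it Iapp was at -0.15 (edgeR adjusted p = 0.193), Gcg at 0.10 (edgeR adjusted p = 0.429) and Ucn3 at 0.14 (edgeR adjusted p = 0.194), and none was called. Ins1 was at -1.08 with the same offset and Pyy at 0.33, both called. Sst, somatostatin, was at 1760.1 and 1868 CPM with DMSO and 1733, 1752 and 2512 CPM with azoramide and did not pass (log2 fold change 0.14, SE 0.15, adjusted p = 0.495 by edgeR); azoramide libraries 1 and 2 lay just below DMSO and library 3 above it, and without library 3 the value was -0.06. Ppy, pancreatic polypeptide, was at 1421 and 1349 CPM with DMSO and 1770.0, 2132 and 1964 CPM with azoramide (log2 fold change 0.50, SE 0.19, adjusted p = 0.075 by edgeR), with no overlap between the groups. Of 14 tested hormone genes, 7 rose and 1 fell, with a median log2 fold change of 0.67. Counts of 7 and 1 (median 0.71) were found without azoramide library 3, and 3 and 1 (median 0.11) with the offset. Alpha cell markers, Gcg among them, summed to 14937 and 16964 CPM with DMSO and 24844, 25896 and 24120 CPM with azoramide. Of 12 tested 6 rose, against 3 without azoramide library 2, 2 without DMSO library 1 and 3 without DMSO library 2.

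More than the background share of beta cell transcription factors fell. Of 23 tested, 2 rose and 13 fell, with a median log2 fold change of -0.44. Counts of 3 and 13 (median -0.47) were found without azoramide library 3. Nkx6-1, needed for beta cell identity, was at 238 and 242 CPM with DMSO and 119, 105 and 132 CPM with azoramide (log2 fold change -1.02, SE 0.10, adjusted p = 2.7e-06 by edgeR). Pdx1, which drives insulin genes, was at 103 and 97.5 CPM with DMSO and 71.7, 73.3 and 66.1 CPM with azoramide (log2 fold change -0.51, SE 0.08, adjusted p = 8.2e-05 by edgeR). Nkx2-2, a repressor of other islet fates, and Insm1, a zinc finger factor of endocrine cells, fell by 0.64 and 0.63 on the log2 scale. All 4 were lower in every azoramide library than in either DMSO library and kept their calls in all 19 alternatives. Of 2 members chosen after their values were seen, Mafa was at 172 and 162 CPM with DMSO and 104, 119.8 and 78.5 CPM with azoramide (log2 fold change -0.73, SE 0.20, adjusted p = 0.0208 by edgeR) and missed the threshold without DMSO library 1 (-0.69) or 2 (-0.77) and with the offset (-0.31). Isl1, which rose, was at 0.27 (175 and 179.8 CPM with DMSO and 228, 233 and 179 CPM with azoramide; edgeR adjusted p = 0.0257), with azoramide library 3 next to DMSO; it was called neither without azoramide library 1 or 2 (0.21 and 0.20) nor without DMSO library 1 or 2 (0.25 and 0.29). The offset moved Isl1 to 0.14 (not called).

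More genes of glucose sensing and excitability fell than rose. Of 26 tested genes of glucose sensing and excitability, 2 rose and 11 fell, with a median log2 fold change of -0.16. Counts of 5 and 10 (median -0.20) were found without azoramide library 3, and 6 and 7 (median 0.06) with the offset. Both subunits of the ATP-sensitive potassium channel fell, Abcc8 with 777 and 832 CPM with DMSO and 518, 485 and 563 CPM with azoramide (log2 fold change -0.62, SE 0.07, adjusted p = 6.1e-06 by edgeR) and Kcnj11 with 136 and 138 CPM with DMSO and 103, 99.3 and 104 CPM with azoramide (log2 fold change -0.43, SE 0.06, adjusted p = 4.0e-05 by edgeR). The calcium channel Cacna1d was at -0.48 and was called in every alternative, whereas Abcc8 was at -0.16 with the length and GC offset (edgeR adjusted p = 0.075). Genes of this list were long, with a median exonic length of 11453 bases against 4269 for all genes. Of 22 tested islet G protein-coupled receptors, 0 rose and 11 fell, with a median log2 fold change of -0.32. Counts of 1 and 11 (median -0.31) were found without azoramide library 3, and 0 and 5 (median -0.13) with the offset. They were 0 and 6 without DMSO library 1. The calcium-sensing receptor Casr was at 64.2 and 65.1 CPM with DMSO and 43.2, 39.5 and 48.3 CPM with azoramide (log2 fold change -0.57, SE 0.09, adjusted p = 1.2e-04 by edgeR). Glp1r, the receptor of the incretin GLP-1, chosen after its values were seen, was at 611 and 554 CPM with DMSO and 293, 278 and 334 CPM with azoramide (log2 fold change -0.95, SE 0.19, adjusted p = 0.00441 by edgeR; -0.81 with the offset). The adrenergic receptor Adra2a (-0.62), the adhesion receptor Celsr2 (-0.79) and the somatostatin receptor Sstr3 (-0.38) fell but were not called with the offset (-0.20, -0.15 and -0.09). The offset moved Kcnj11 to -0.17 and Cacna1d to -0.21.

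Prohormone processing and granule genes leaned to lower levels. Of 10 tested processing genes, 2 rose and 5 fell, with a median log2 fold change of -0.32. Counts of 2 and 5 (median -0.37) were found without azoramide library 3. They were 1 and 3 without azoramide library 1, 2 and 3 without azoramide library 2, 1 and 3 without DMSO library 1 and 1 and 3 without DMSO library 2. The proprotein convertase Pcsk6 fell (-0.69, SE 0.12), as did Pcsk1n, an inhibitor of another convertase (-0.47, SE 0.07), and the convertase Furin (-0.59; -0.06 and not called with the offset). Scg5, a chaperone of prohormone convertase 2, rose (0.34) but was at -0.10 with the offset. Of 29 tested genes of granules and exocytosis, 3 rose and 13 fell, with a median log2 fold change of -0.14. Counts of 5 and 13 (median -0.15) were found without azoramide library 3, and 3 and 8 (median 0.01) with the offset. Chga, chromogranin A, was at 9245 and 8827 CPM with DMSO and 4963, 5231 and 6249 CPM with azoramide (log2 fold change -0.72, SE 0.08, adjusted p = 3.8e-06 by edgeR). The synaptotagmin Syt13 (-0.55, SE 0.06), the granule phosphatase relative Ptprn2 (-0.51, SE 0.06) and the priming factor Cadps (-0.60, SE 0.08) fell in every alternative. Of 19 genes that are low in mature beta cells, 4 rose and 0 fell, with a median log2 fold change of 0.20. Counts of 5 and 0 (median 0.38) were found without azoramide library 3. Cd24a, a surface marker of immature endocrine cells, was at 68.3 and 70.5 CPM with DMSO and 132, 151 and 139 CPM with azoramide (log2 fold change 1.02, SE 0.11, adjusted p = 1.1e-05 by edgeR). The offset moved Pcsk6 to -0.45, Ptprn2 to -0.21 and Cadps to -0.38.

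More ER folding genes rose than fell. Of 23 tested ER chaperones and folding enzymes, 15 rose and 1 fell, with a median log2 fold change of 0.47. Counts of 14 and 1 (median 0.49) were found without azoramide library 3, and 11 and 0 (median 0.22) with the offset. Hspa5, the chaperone BiP, was at 1438 and 1459 CPM with DMSO and 2422, 2376 and 2264 CPM with azoramide (log2 fold change 0.70, SE 0.14, adjusted p = 0.00323 by edgeR), with the groups far apart. Pdia3, a disulfide isomerase, was at 938 and 936 CPM with DMSO and 1725, 1725 and 1497 CPM with azoramide (log2 fold change 0.82, SE 0.09, adjusted p = 2.1e-06 by edgeR). Fkbp11, a prolyl isomerase, was at 12 and 12.2 CPM with DMSO and 23.8, 22.1 and 30.5 CPM with azoramide (log2 fold change 1.07, SE 0.14, adjusted p = 1.8e-05 by edgeR). Fkbp2 and Ppib, prolyl isomerases too, had log2 fold changes of 0.79, SE 0.07 and 0.76, SE 0.08. Hsp90b1, the HSP90 of the ER, and Manf, a secreted ER stress protein, were chosen after their values were seen. Hsp90b1 was at 1100.4 and 1056 CPM with DMSO and 2895, 2499.8 and 1828 CPM with azoramide (log2 fold change 1.16, SE 0.20, adjusted p = 0.00206 by edgeR), and Manf at 187 and 187 CPM with DMSO and 338, 334 and 301 CPM with azoramide (log2 fold change 0.79, SE 0.16, adjusted p = 0.00291 by edgeR). All of these were called in every alternative.

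More genes of the entry route into the ER rose than fell. Of 31 tested genes of translocation, signal peptide cleavage and glycosylation, 25 rose and 0 fell, with a median log2 fold change of 0.54. Counts of 25 and 0 (median 0.56) were found without azoramide library 3, and 19 and 1 (median 0.31) with the offset. Sec61g, a subunit of the translocon, was at 79.6 and 78.5 CPM with DMSO and 243, 226 and 188 CPM with azoramide (log2 fold change 1.47, SE 0.11, adjusted p = 5.4e-07 by edgeR). Sec11c, a catalytic subunit of the signal peptidase, was at 147 and 145 CPM with DMSO and 319, 293 and 285 CPM with azoramide (log2 fold change 1.04, SE 0.08, adjusted p = 6.8e-08 by edgeR). Spcs1, another subunit of it, and Srp9, of the signal recognition particle, had values of 0.87, SE 0.08 and 0.99, SE 0.09. Sec61b, chosen after its values were seen, was at 0.81. Degradation from the ER was mixed: of 22 tested genes, 6 rose and 4 fell, with a median log2 fold change of 0.07. Counts of 5 and 4 (median 0.08) were found without azoramide library 3, and 3 and 2 (median 0.00) with the offset. They were 3 and 2 without DMSO library 1. Selenos, a selenoprotein of the degradation complex, rose (0.65, SE 0.07), whereas Sel1l (-0.57, SE 0.07) and Syvn1 (-0.39, SE 0.09), the core of the HRD1 ligase complex, fell, Syvn1 without a call under the offset (-0.05). Ube2j1, a ubiquitin-conjugating enzyme of this pathway, was at 0.29 and at 0.00 with the offset. The offset moved Spcs1 to 0.38 and Selenos to 0.20.

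Sensors and transcription factors of the unfolded protein response fell more often than they rose. Of 19 tested, 4 rose and 9 fell, with a median log2 fold change of -0.16. Counts of 4 and 10 (median -0.21) were found without azoramide library 3, and 3 and 4 (median -0.06) with the offset. They were 2 and 8 without DMSO library 1 and 2 and 9 without DMSO library 2. The ER-bound factor Creb3l2 was at 189.7 and 201 CPM with DMSO and 126, 127 and 141 CPM with azoramide (log2 fold change -0.57, SE 0.07, adjusted p = 1.2e-05 by edgeR), and Wfs1, the ER membrane protein wolframin, at 145 and 152 CPM with DMSO and 96.1, 94.9 and 109 CPM with azoramide (log2 fold change -0.57, SE 0.08, adjusted p = 4.6e-05 by edgeR). Mbtps1, the Golgi protease that activates ATF6 and SREBPs, fell by 0.56 on the log2 scale, and Creb3 rose (0.58, SE 0.07). Xbp1, the transcription factor spliced by IRE1, was at 316 and 302 CPM with DMSO and 368, 369 and 359.6 CPM with azoramide (log2 fold change 0.24, SE 0.07, adjusted p = 0.0129 by edgeR), and was called neither without DMSO library 2 (0.21, edgeR adjusted p = 0.134) nor with plain library totals (0.09). These counts are per gene and do not show Xbp1 splicing. The offset moved Wfs1 to -0.30.

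Targets of ATF4 and CHOP, the factors of the integrated stress response, changed at about the background rate. Of 29 tested, 6 rose and 5 fell, with a median log2 fold change of 0.02. Counts of 6 and 6 (median -0.02) were found without azoramide library 3, and 5 and 2 (median 0.11) with the offset. They were 6 and 3 without azoramide library 1, 5 and 3 without azoramide library 2, 3 and 3 without DMSO library 1 and 4 and 2 without DMSO library 2. Asns, asparagine synthetase, was at 283 and 304 CPM with DMSO and 475, 452 and 440.1 CPM with azoramide (log2 fold change 0.63, SE 0.08, adjusted p = 1.5e-05 by edgeR). The translation repressor Eif4ebp1 rose (0.58, SE 0.12), while the stress protein Sesn2 (-0.52, SE 0.10) and the amino acid transporter Slc7a5 (-0.43, SE 0.09) fell; with the offset none of these 3 was called (0.32, -0.23 and -0.22). Atf4 itself was at 429 and 451 CPM with DMSO and 574, 592 and 624 CPM with azoramide (log2 fold change 0.44, SE 0.12, adjusted p = 0.0136 by edgeR), and missed the threshold without DMSO library 1 or 2 (0.41 and 0.48). Ddit3, which encodes CHOP, was at 36.3 and 41 CPM with DMSO and 54.5, 58.5 and 74.5 CPM with azoramide (log2 fold change 0.69, SE 0.18, adjusted p = 0.0105 by edgeR), highest in azoramide library 3, and missed it without DMSO library 1 (0.61) and with the offset (0.39).

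ER calcium genes moved both ways. Of 23 tested, 6 rose and 8 fell, with a median log2 fold change of 0.03. Counts of 6 and 8 (median 0.01) were found without azoramide library 3, and 6 and 5 (median 0.11) with the offset. Atp2a3, the ER calcium pump SERCA3, was at 497 and 479.8 CPM with DMSO and 228, 227 and 266 CPM with azoramide (log2 fold change -1.02, SE 0.09, adjusted p = 9.7e-07 by edgeR), and the 2 groups were far apart. The IP3 receptor Itpr2 was at 25.1 and 26.9 CPM with DMSO and 13.5, 13.1 and 14.7 CPM with azoramide (log2 fold change -0.92, SE 0.10, adjusted p = 4.0e-06 by edgeR), and the plasma membrane calcium pump Atp2b2 at 48.2 and 48.7 CPM with DMSO and 27.8, 21.5 and 26.2 CPM with azoramide (log2 fold change -0.94, SE 0.11, adjusted p = 5.3e-06 by edgeR). Sdf4, a calcium-binding protein of the Golgi lumen, rose (0.58, SE 0.07). Tmco1, an ER calcium leak channel chosen after its values were seen, was at 41.4 and 35.8 CPM with DMSO and 71.1, 63.7 and 55.1 CPM with azoramide (log2 fold change 0.71, SE 0.10, adjusted p = 3.2e-05 by edgeR). Atp2a3, Itpr2, Atp2b2 and Sdf4 were called in all 19 alternatives. Vesicle transport between ER and Golgi moved both ways, since of 35 tested COPII and COPI genes 21 rose and 8 fell, with a median log2 fold change of 0.27. Counts of 20 and 8 (median 0.26) were found without azoramide library 3, and 15 and 4 (median 0.11) with the offset. They were 16 and 5 without DMSO library 2. The coatomer subunit Cope (0.67, SE 0.07) and the coat protein Sec13 (0.59, SE 0.07) rose, the exchange factor Gbf1 fell (-0.60, SE 0.06), and the GTPase Sar1b was at 0.70 and at -0.03 with the offset. The offset moved Atp2a3 to -0.66, Itpr2 to -0.59, Atp2b2 to -0.53 and Gbf1 to -0.29.

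**Figure D3:**
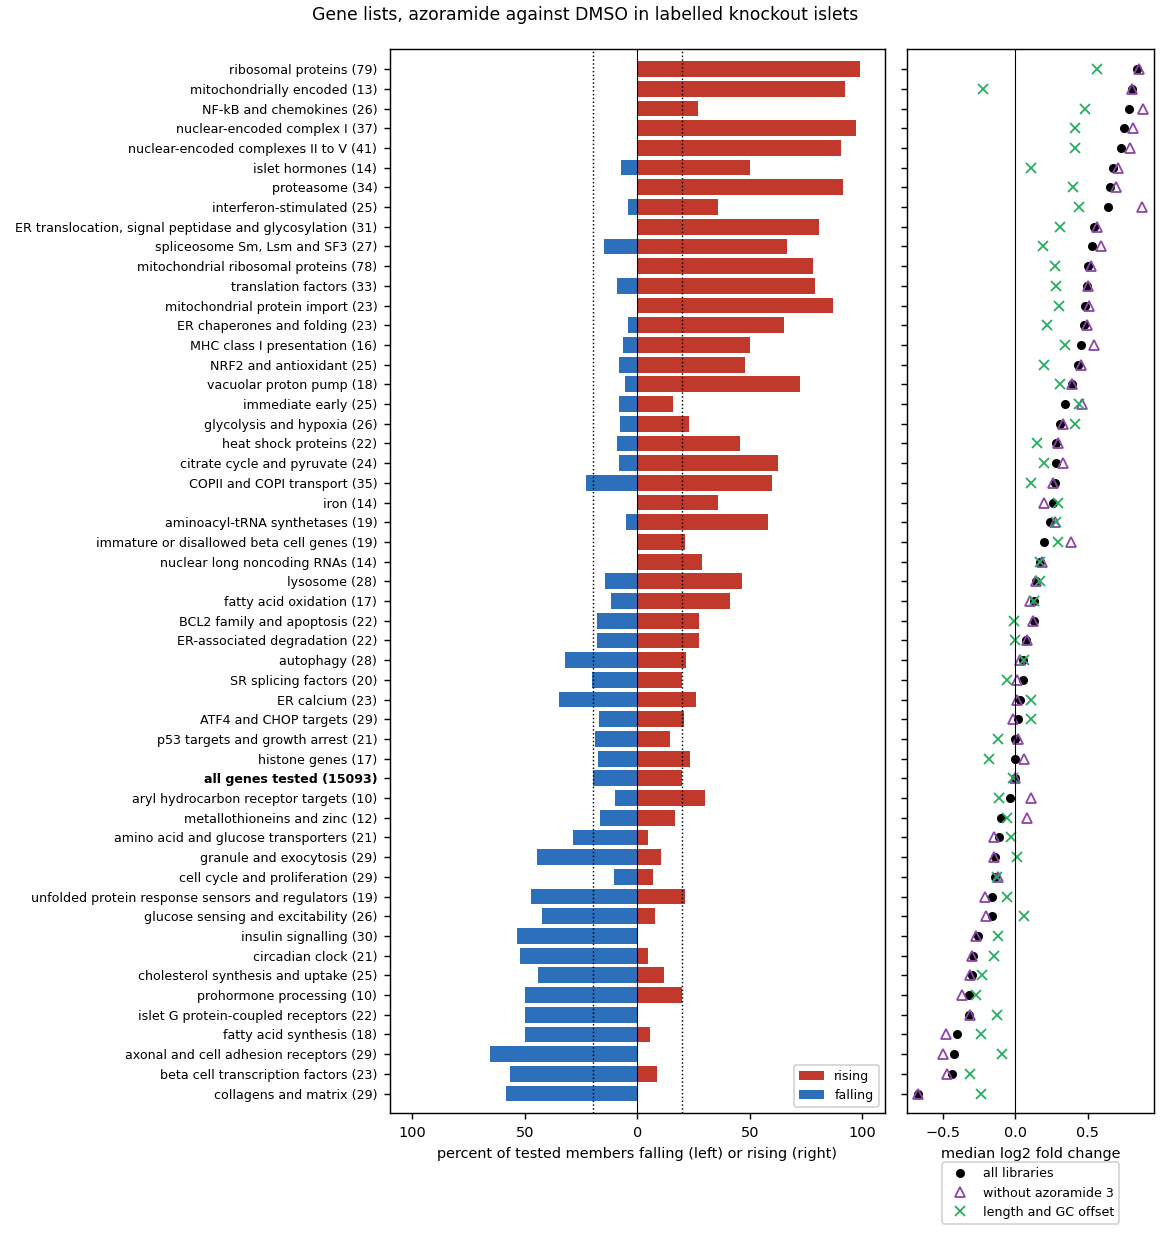
Gene lists ordered by median log2 fold change, with the number of tested members in parentheses. Left, percent of members past the edgeR threshold, falling in blue and rising in red, with dotted lines at the shares over all genes tested (19.8% and 20%). Right, median log2 fold change with all libraries, without azoramide library 3 and under the correction for length and GC; ribosomal proteins are at 0.84 and collagens and matrix at -0.67 with all libraries.

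Components of the ribosome rose nearly without exception. Of 79 tested cytosolic ribosomal protein genes, 78 rose and 0 fell, with a median log2 fold change of 0.84. Counts of 78 and 0 (median 0.85) were found without azoramide library 3. Rps27a, which encodes a ribosomal protein fused to ubiquitin, was at 195 and 194 CPM with DMSO and 409.9, 428 and 381 CPM with azoramide (log2 fold change 1.07, SE 0.07, adjusted p = 3.7e-08 by edgeR). Rps29 was at 119.8 and 119 CPM with DMSO and 242, 244 and 242 CPM with azoramide (log2 fold change 1.02, SE 0.06, adjusted p = 2.0e-08 by edgeR), with less than 3 CPM between libraries of a group. Rpl38 and Rpl30 were at 1.09, SE 0.07 and 1.0, SE 0.07. Reads of ribosomal protein genes can be shared with their many pseudogenes, and how the counting treated such reads is not given in the sources used here. Of 78 tested mitochondrial ribosomal protein genes, 61 rose and 0 fell, with a median log2 fold change of 0.50. Counts of 61 and 1 (median 0.52) were found without azoramide library 3, and 36 and 1 (median 0.27) with the offset. Mrpl33, of the large subunit, was at 21.1 and 23.2 CPM with DMSO and 46.8, 45.8 and 39.96 CPM with azoramide (log2 fold change 1.0, SE 0.11, adjusted p = 2.9e-06 by edgeR). The offset moved Rps27a to 0.64, Rps29 to 0.41, Rpl38 to 0.58 and Rpl30 to 0.60.

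Most translation factors rose. Of 33 tested translation factors, 26 rose and 3 fell, with a median log2 fold change of 0.49. Counts of 24 and 4 (median 0.50) were found without azoramide library 3, and 22 and 1 (median 0.28) with the offset. Eif2s2, the beta subunit of initiation factor eIF2, was at 212 and 210.2 CPM with DMSO and 387, 400.1 and 364 CPM with azoramide (log2 fold change 0.86, SE 0.08, adjusted p = 5.4e-07 by edgeR). Eef1b2, an exchange factor of elongation (0.80, SE 0.07), and the eIF3 subunits Eif3e (0.76, SE 0.06) and Eif3m (0.83, SE 0.07) were called in every alternative. Of 19 tested aminoacyl-tRNA synthetases, 11 rose and 1 fell, with a median log2 fold change of 0.24. Counts of 9 and 1 (median 0.27) were found without azoramide library 3. They were 7 and 1 without DMSO library 1. Farsb, a subunit of the phenylalanine enzyme, was at 43.4 and 45.5 CPM with DMSO and 82, 83.4 and 79.8 CPM with azoramide (log2 fold change 0.88, SE 0.08, adjusted p = 6.0e-07 by edgeR). Of 27 tested core spliceosome genes, 18 rose and 4 fell, with a median log2 fold change of 0.53. Counts of 18 and 4 (median 0.59) were found without azoramide library 3, and 11 and 2 (median 0.19) with the offset. The Sm proteins Snrpe and Snrpd2 were at 0.93, SE 0.12 and 0.86, SE 0.11. Regulatory SR splicing factors were called at about the background rate (40%, against 39.8% of all genes). Of 20 tested 4 rose and 4 fell, with a median log2 fold change of 0.05. Counts of 4 and 5 (median 0.01) were found without azoramide library 3, and 3 and 6 (median -0.06) with the offset. Srsf3 (0.47, SE 0.07) and Tra2b (0.46, SE 0.06) rose, and Srsf4 (-0.47, SE 0.09) and the scaffold Srrm2 (-0.54, SE 0.07) fell. The offset moved Eif3e to 0.50, Eif3m to 0.29, Farsb to 0.53, Snrpe to 0.44 and Srrm2 to -0.19.

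Most nuclear-encoded subunits of the respiratory chain rose. Of 37 tested nuclear-encoded subunits of complex I, the NADH dehydrogenase, 36 rose and 0 fell, with a median log2 fold change of 0.75. Counts of 37 and 0 (median 0.81) were found without azoramide library 3, and 26 and 0 (median 0.41) with the offset. Ndufa4, listed with complex I although also placed in complex IV, was at 52.8 and 56.9 CPM with DMSO and 136, 120.2 and 109 CPM with azoramide (log2 fold change 1.15, SE 0.09, adjusted p = 7.5e-08 by edgeR). Ndufb5 was at 0.87, SE 0.08 and Ndufa13 at 0.81, SE 0.07, while Ndufa1 was at 0.93 and at 0.03, not called, with the offset. Of 41 tested subunits of complexes II to V, 37 rose and 0 fell, with a median log2 fold change of 0.73. Counts of 39 and 0 (median 0.79) were found without azoramide library 3, and 31 and 0 (median 0.41) with the offset. Cox6b1, of cytochrome oxidase, was at 69 and 74.5 CPM with DMSO and 157, 152 and 134 CPM with azoramide (log2 fold change 1.04, SE 0.07, adjusted p = 5.7e-08 by edgeR), and Uqcrb, of the bc1 complex, at 61.3 and 58.8 CPM with DMSO and 139, 133 and 117 CPM with azoramide (log2 fold change 1.11, SE 0.08, adjusted p = 4.4e-08 by edgeR; 0.17 and not called with the offset). The offset moved Ndufa4 to 0.41 and Cox6b1 to 0.45.

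All calls of mitochondrially encoded genes ended with the length and GC correction. Of 13 tested, 12 rose and 0 fell, with a median log2 fold change of 0.80. Counts of 12 and 0 (median 0.80) were found without azoramide library 3, and 0 and 0 (median -0.22) with the offset. The ATP synthase gene mt-Atp6 was at 3726 and 3441 CPM with DMSO and 6413, 6423 and 6654 CPM with azoramide (log2 fold change 0.86, SE 0.08, adjusted p = 5.4e-07 by edgeR), and the oxidase gene mt-Co2 at 4409 and 4533 CPM with DMSO and 7723, 7866 and 8470.2 CPM with azoramide (log2 fold change 0.84, SE 0.08, adjusted p = 8.6e-07 by edgeR). With the offset they were at -0.23 and -0.22. Members of this list were short, with a median length of 784 bases. Of 23 tested genes of mitochondrial protein import, 20 rose and 0 fell, with a median log2 fold change of 0.48. Counts of 18 and 0 (median 0.51) were found without azoramide library 3, and 11 and 0 (median 0.30) with the offset. The small translocase Timm8a1 was at 11.6 and 10.4 CPM with DMSO and 29.5, 24.8 and 27.1 CPM with azoramide (log2 fold change 1.30, SE 0.15, adjusted p = 3.5e-06 by edgeR). Of 24 tested genes of the citrate cycle and pyruvate entry, 15 rose and 2 fell, with a median log2 fold change of 0.28. Counts of 15 and 3 (median 0.33) were found without azoramide library 3. Mpc1, of the mitochondrial pyruvate carrier, was at 42.2 and 39.7 CPM with DMSO and 95.2, 86.6 and 77.1 CPM with azoramide (log2 fold change 1.08, SE 0.09, adjusted p = 1.6e-07 by edgeR). Pcx, pyruvate carboxylase, a major enzyme of beta cell anaplerosis, went the other way, at 151 and 144 CPM with DMSO and 82.9, 87 and 92.6 CPM with azoramide (log2 fold change -0.75, SE 0.07, adjusted p = 5.4e-07 by edgeR), with no overlap. The offset moved Timm8a1 to 0.84, Mpc1 to 0.69 and Pcx to -0.41.

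Most proteasome genes and part of the lysosomal genes rose. Of 34 tested proteasome subunits, 31 rose and 0 fell, with a median log2 fold change of 0.65. Counts of 31 and 0 (median 0.69) were found without azoramide library 3, and 29 and 0 (median 0.40) with the offset. Psmb7, a catalytic subunit, was at 73 and 72.3 CPM with DMSO and 143, 133 and 127 CPM with azoramide (log2 fold change 0.89, SE 0.07, adjusted p = 1.2e-07 by edgeR), and Psmc6, an ATPase of the base, at 95.7 and 95.6 CPM with DMSO and 171, 182 and 165 CPM with azoramide (log2 fold change 0.85, SE 0.07, adjusted p = 1.8e-07 by edgeR). Of 18 tested subunits of the vacuolar proton pump, 13 rose and 1 fell, with a median log2 fold change of 0.39. Counts of 13 and 1 (median 0.39) were found without azoramide library 3. Atp6v1f was at 0.80, SE 0.08. Of 28 tested lysosomal genes, 13 rose and 4 fell, with a median log2 fold change of 0.14. Counts of 13 and 5 (median 0.14) were found without azoramide library 3, and 12 and 1 (median 0.17) with the offset. The alpha-galactosidase Gla was at 24.9 and 27.8 CPM with DMSO and 76.9, 71.3 and 61 CPM with azoramide (log2 fold change 1.40, SE 0.16, adjusted p = 5.1e-05 by edgeR), the protease cathepsin B (Ctsb) at 486 and 505 CPM with DMSO and 1053, 1006 and 905 CPM with azoramide (log2 fold change 1.0, SE 0.09, adjusted p = 5.4e-07 by edgeR), and the membrane protein Lamp2 at 0.80, SE 0.07. Autophagy genes went both ways, since of 28 tested 6 rose and 9 fell, with a median log2 fold change of 0.05. Counts of 6 and 9 (median 0.03) were found without azoramide library 3, and 8 and 5 (median 0.06) with the offset. The kinase Ulk1, which starts autophagy, was at 61.9 and 62.6 CPM with DMSO and 31.2, 29.2 and 40.4 CPM with azoramide (log2 fold change -0.89, SE 0.12, adjusted p = 5.1e-05 by edgeR), while the ATG8 relatives Gabarap (0.65, SE 0.06) and Gabarapl2 (0.51, SE 0.07) rose. The offset moved Psmb7 to 0.53, Psmc6 to 0.45, Atp6v1f to 0.44, Ulk1 to -0.43, Gabarap to 0.34 and Gabarapl2 to 0.20.

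More genes of lipid synthesis fell than rose. Of 18 tested genes of fatty acid synthesis, 1 rose and 9 fell, with a median log2 fold change of -0.40. Counts of 2 and 11 (median -0.48) were found without azoramide library 3, and 0 and 8 (median -0.24) with the offset. Fatty acid synthase (Fasn) was at 167 and 169 CPM with DMSO and 94.2, 88.3 and 104 CPM with azoramide (log2 fold change -0.81, SE 0.07, adjusted p = 3.5e-07 by edgeR), and the desaturase Scd2 at 206 and 188 CPM with DMSO and 111, 111 and 113 CPM with azoramide (log2 fold change -0.82, SE 0.09, adjusted p = 1.6e-06 by edgeR). The desaturase Fads1 (-0.66, SE 0.09) and Acaca, acetyl-CoA carboxylase (-0.51, SE 0.08), fell in all alternatives, as did Mlxipl, described above, a transcriptional activator of this pathway. Of 25 tested genes of cholesterol synthesis and uptake, 3 rose and 11 fell, with a median log2 fold change of -0.30. Counts of 3 and 8 (median -0.31) were found without azoramide library 3. They were 2 and 6 without DMSO library 1 and 2 and 7 without DMSO library 2. Insig1, the sterol sensor that holds SREBP in the ER, was at 149.6 and 143 CPM with DMSO and 77.1, 85.8 and 77.3 CPM with azoramide (log2 fold change -0.87, SE 0.13, adjusted p = 3.6e-04 by edgeR). Srebf2 (-0.68), the master regulator, fell but was not called with the offset (-0.23), and Msmo1, a sterol oxidase, rose (0.44, SE 0.08). Hmgcs1, the HMG-CoA synthase, chosen after its values were seen, was at -0.67 and not called without DMSO library 1 (-0.57). Of 17 tested genes of fatty acid oxidation, 7 rose and 2 fell, with a median log2 fold change of 0.13. Counts of 7 and 1 (median 0.10) were found without azoramide library 3. They were 4 and 1 without DMSO library 1 and 4 and 1 without DMSO library 2. Pdk4, the kinase that restrains pyruvate dehydrogenase, was at 17.6 and 14.5 CPM with DMSO and 38.1, 45.6 and 31 CPM with azoramide (log2 fold change 1.26, SE 0.18, adjusted p = 1.1e-04 by edgeR). The offset moved Fasn to -0.22 and Acaca to -0.28.

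Nearly all called genes of insulin signalling and the clock fell. Of 30 tested genes of insulin signalling, 0 rose and 16 fell, with a median log2 fold change of -0.26. Counts of 0 and 15 (median -0.27) were found without azoramide library 3, and 3 and 9 (median -0.12) with the offset. Igfbp5, which binds insulin-like growth factors, was at 299.6 and 316 CPM with DMSO and 143, 135 and 170.4 CPM with azoramide (log2 fold change -1.04, SE 0.09, adjusted p = 1.4e-07 by edgeR). The insulin receptor Insr, chosen after its values were seen, was at 73.1 and 74.4 CPM with DMSO and 44.1, 49.2 and 53 CPM with azoramide (log2 fold change -0.60, SE 0.09, adjusted p = 9.2e-05 by edgeR). Foxo3 (-0.64), a transcription factor restrained by insulin, and the growth regulators Tsc2 (-0.56) and Mtor (-0.47) were not called with the offset (-0.15, -0.14 and -0.11). The median exonic length of this list was 8876.5 bases. Of 21 tested clock genes, 1 rose and 11 fell, with a median log2 fold change of -0.29. Counts of 1 and 11 (median -0.30) were found without azoramide library 3, and 1 and 4 (median -0.15) with the offset. They were 1 and 5 without azoramide library 1, 1 and 6 without azoramide library 2, 1 and 6 without DMSO library 1 and 1 and 5 without DMSO library 2. The repressors Nr1d1 (-0.63, SE 0.13) and Cry2 (-0.52, SE 0.09) fell in all alternatives. The offset moved Cry2 to -0.23.

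Matrix and adhesion genes leaned to lower levels. Of 29 tested genes of collagens and matrix, 0 rose and 17 fell, with a median log2 fold change of -0.67. Counts of 0 and 18 (median -0.67) were found without azoramide library 3, and 0 and 7 (median -0.24) with the offset. The laminin chain Lamb1 was at 32.8 and 29.8 CPM with DMSO and 18.2, 21.2 and 18.9 CPM with azoramide (log2 fold change -0.69, SE 0.11, adjusted p = 9.0e-05 by edgeR), and the basement membrane collagen Col4a1, chosen after its values were seen, at 107 and 106 CPM with DMSO and 62.3, 69.4 and 70.7 CPM with azoramide (log2 fold change -0.66, SE 0.11, adjusted p = 2.6e-04 by edgeR; -0.21 and not called with the offset). The heparan sulfate proteoglycan Hspg2 and the latent TGF-beta binding protein Ltbp3 were at -0.76 and -0.52, and with the offset at -0.02 and 0.12. Endothelial markers were lower in the same libraries, and stellate and fibroblast markers summed to 67.9 and 62.1 CPM with DMSO and to 58.7, 62.1 and 59.7 CPM with azoramide. Rgs5, a pericyte gene, had more counts than any other member, with 538 and 578 counts with DMSO and 497, 566 and 643 with azoramide. Pdgfrb, a growth factor receptor of pericytes and fibroblasts, fell from 234 and 270 counts to 133, 126 and 104, and the proteoglycan Cspg4 from 72 and 65 to 32, 37 and 26. Their log2 fold changes were -0.90 and -0.96, and -0.61 and -0.35 with the offset, under which only Pdgfrb was called. Of 14 tested members these 2 fell and 0 rose, with 4 falling without azoramide library 1 or DMSO library 2 and 1 without DMSO library 1, and 4 were lower in all azoramide libraries. The part of these cells in the matrix values was not tested. Of 29 tested axonal and cell adhesion receptors, 0 rose and 19 fell, with a median log2 fold change of -0.42. Counts of 0 and 17 (median -0.50) were found without azoramide library 3, and 1 and 4 (median -0.09) with the offset. The plexins Plxnb1 and Plxnb2 and the receptor phosphatase Ptprf fell by 0.50, 0.53 and 0.50 on the log2 scale and were at 0.05, -0.07 and 0.04 with the offset. The offset moved Lamb1 to -0.42.

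Antioxidant and heat shock genes rose in part. Of 25 tested antioxidant genes, 12 rose and 2 fell, with a median log2 fold change of 0.43. Counts of 11 and 3 (median 0.45) were found without azoramide library 3, and 8 and 3 (median 0.20) with the offset. They were 7 and 1 without DMSO library 2. Gpx4, which removes lipid peroxides, was at 135 and 147 CPM with DMSO and 275, 252 and 228 CPM with azoramide (log2 fold change 0.84, SE 0.08, adjusted p = 7.3e-07 by edgeR), and the peroxiredoxin Prdx1 at 177 and 167 CPM with DMSO and 316, 306 and 275 CPM with azoramide (log2 fold change 0.80, SE 0.07, adjusted p = 1.8e-07 by edgeR). Sod1, the cytosolic superoxide dismutase, was at 0.69, SE 0.06, and Txn1, thioredoxin, at 0.71 and at 0.07, not called, with the offset. Of 22 tested cytosolic and mitochondrial heat shock genes, 10 rose and 2 fell, with a median log2 fold change of 0.28. Counts of 11 and 2 (median 0.29) were found without azoramide library 3, and 8 and 0 (median 0.15) with the offset. They were 6 and 1 without DMSO library 2. The constitutive HSP70 gene Hspa8 was at 831 and 795 CPM with DMSO and 1259.7, 1332 and 1412 CPM with azoramide (log2 fold change 0.72, SE 0.09, adjusted p = 1.2e-05 by edgeR) and Hsp90aa1 at 382 and 368 CPM with DMSO and 585, 594 and 568 CPM with azoramide (log2 fold change 0.63, SE 0.07, adjusted p = 3.0e-06 by edgeR). Of 14 tested iron genes, 5 rose and 0 fell, with a median log2 fold change of 0.26. Counts of 5 and 0 (median 0.20) were found without azoramide library 3. They were 3 and 0 without DMSO library 2. Tfrc, the transferrin receptor, was at 224 and 199 CPM with DMSO and 399.6, 389 and 388 CPM with azoramide (log2 fold change 0.89, SE 0.08, adjusted p = 3.1e-07 by edgeR), and Ftl1, the ferritin light chain, rose as well (0.52, SE 0.07), as did Id1, a target of the BMP signals that drive hepcidin (1.08, SE 0.24). The offset moved Prdx1 to 0.40 and Hsp90aa1 to 0.40.

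Interferon-stimulated genes had higher medians in azoramide libraries 1 and 2 than in library 3. Of 25 tested interferon-stimulated genes, 9 rose and 1 fell, with a median log2 fold change of 0.64. Counts of 12 and 1 (median 0.87) were found without azoramide library 3, and 2 and 1 (median 0.44) with the offset. They were 5 and 0 without DMSO library 1 and 3 and 1 without DMSO library 2. Bst2, tetherin, was at 17.4 and 14.5 CPM with DMSO and 32.6, 44.3 and 26.9 CPM with azoramide (log2 fold change 1.12, SE 0.23, adjusted p = 0.00316 by edgeR), and Isg15, a ubiquitin-like modifier, at 1.59 and 1.53 CPM with DMSO and 4.08, 5.62 and 2.56 CPM with azoramide (log2 fold change 1.38, SE 0.33, adjusted p = 0.00304 by edgeR; 0.82 and not called with the offset). Relative to the DMSO mean the list median was 0.44, 1.03 and 0.09 in azoramide libraries 1, 2 and 3. Of 16 tested genes of MHC class I presentation, 8 rose and 1 fell, with a median log2 fold change of 0.45. Counts of 9 and 1 (median 0.54) were found without azoramide library 3. They were 5 and 1 without DMSO library 2. H2-T22, a nonclassical MHC gene, was at 30.8 and 31.1 CPM with DMSO and 72.2, 82.2 and 51.9 CPM with azoramide (log2 fold change 1.15, SE 0.17, adjusted p = 3.1e-04 by edgeR), and Psme2, of the proteasome activator, at 58.8 and 61.3 CPM with DMSO and 105, 117 and 89.9 CPM with azoramide (log2 fold change 0.79, SE 0.09, adjusted p = 5.4e-06 by edgeR). Of 26 tested NF-kB targets and chemokines, 7 rose and 0 fell, with a median log2 fold change of 0.78. Counts of 10 and 0 (median 0.88) were found without azoramide library 3, and 8 and 0 (median 0.48) with the offset. The growth factor Csf3 was at 0.462 and 0.336 CPM with DMSO and 2.36, 2.56 and 3.13 CPM with azoramide (log2 fold change 2.73, SE 0.53, adjusted p = 5.2e-04 by edgeR), low in all libraries, and the antiapoptotic gene Birc3 at 19.7 and 17.3 CPM with DMSO and 33.6, 34.8 and 27.8 CPM with azoramide (log2 fold change 0.80, SE 0.15, adjusted p = 4.7e-04 by edgeR). The chemokine Ccl5 was at 10.4 and 6.95 CPM with DMSO and 23.8, 18.4 and 12.5 CPM with azoramide (log2 fold change 1.08, SE 0.24, adjusted p = 0.00301 by edgeR). The offset moved Psme2 to 0.46 and Ccl5 to 0.61.

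The summed macrophage markers were highest in azoramide libraries 1 and 2, and the log2 fold changes of the members had both signs. Cd68, a lysosomal protein of macrophages, was at 13.3 and 14.9 CPM with DMSO and 42.4, 39.98 and 33.9 CPM with azoramide (log2 fold change 1.46, SE 0.23, adjusted p = 6.5e-04 by edgeR), and high in all 3 azoramide libraries. Tyrobp, a signalling adaptor of myeloid cells, was at 1.59 and 1.87 CPM with DMSO and 5.63, 4.61 and 2.56 CPM with azoramide (log2 fold change 1.30, SE 0.34, adjusted p = 0.0059 by edgeR), and Ptprc, the leukocyte antigen CD45, at 3.54 and 3.12 CPM with DMSO and 7.35, 5.23 and 4.04 CPM with azoramide (log2 fold change 0.74, SE 0.25, adjusted p = 0.028 by edgeR). Tyrobp missed the threshold without DMSO library 1 (1.19), and Ptprc without azoramide library 1 (0.47) or DMSO library 1 or 2 (0.83 and 0.65). Of 20 tested members 6 rose (2 with the offset). Cd74 (-0.26) and H2-Ab1 (-0.36), of class II antigen presentation, and the integrin Itgam (-0.80) were lower in all 3 azoramide libraries than in both DMSO libraries, and none of them was called. H2-Aa, also of class II, did not share this direction. Before scaling it had 536 and 600 counts with DMSO and 1083, 899 and 564 with azoramide. The whole list summed to 363.1 and 282.6 CPM in azoramide libraries 1 and 2, to 196.6 CPM in library 3 and to 200.6 and 207.7 CPM with DMSO, and its part in the inflammatory genes was not tested. The offset moved Tyrobp to 0.77 (not called).

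Immediate early genes are induced within minutes of a stimulus. Of 25 tested, 4 rose and 2 fell, with a median log2 fold change of 0.34. The share called was 24%, under the 39.8% of all genes. Counts of 6 and 2 (median 0.46) were found without azoramide library 3. They were 2 and 2 without azoramide library 2 and 2 and 2 without DMSO library 1. Maff, a small MAF protein, was at 16.7 and 16.2 CPM with DMSO and 37, 40.6 and 30.1 CPM with azoramide (log2 fold change 1.13, SE 0.16, adjusted p = 5.4e-05 by edgeR). Egr1, chosen after its values were seen, was at 22.9 and 34.1 CPM with DMSO and 50.8, 64.8 and 72.1 CPM with azoramide (log2 fold change 1.13, SE 0.31, adjusted p = 0.0218 by edgeR), and missed the threshold without azoramide library 2 (1.10) or 3 (1.02) or DMSO library 1 (0.88). Ier3 rose (0.68, SE 0.14) and Jund fell (-0.35, SE 0.07), neither called with the offset (0.32 and -0.08). The share called was 17.2% of tested cell cycle genes and 45.5% of tested apoptosis genes, against 39.8% of all genes tested. Of 29 tested cell cycle genes, 2 rose and 3 fell, with a median log2 fold change of -0.14. Counts of 1 and 4 (median -0.12) were found without azoramide library 3, and 4 and 3 (median -0.13) with the offset. Pcna, the replication clamp, was at 47.6 and 42.5 CPM with DMSO and 87.8, 100.2 and 77.4 CPM with azoramide (log2 fold change 0.97, SE 0.12, adjusted p = 4.3e-05 by edgeR), and Ccnd2, the main D cyclin of beta cells, at 460.0 and 471 CPM with DMSO and 290.0, 294 and 373 CPM with azoramide (log2 fold change -0.55, SE 0.10, adjusted p = 3.5e-04 by edgeR). Of 22 tested genes of apoptosis, 6 rose and 4 fell, with a median log2 fold change of 0.13. Counts of 6 and 4 (median 0.12) were found without azoramide library 3, and 5 and 2 (median -0.01) with the offset. They were 4 and 2 without DMSO library 2. Cycs, cytochrome c, rose (1.09, SE 0.13), and Bbc3, the death protein PUMA, fell (-0.84, SE 0.16). The offset moved Pcna to 0.43, Ccnd2 to -0.31, Cycs to 0.67 and Bbc3 to -0.48.

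The remaining groups can be given briefly. Of 26 tested genes of glycolysis and hypoxia, 6 rose and 2 fell, with a median log2 fold change of 0.31. Counts of 4 and 2 (median 0.33) were found without azoramide library 3. They were 2 and 1 without azoramide library 1, 1 and 1 without DMSO library 1 and 1 and 1 without DMSO library 2. Mif, a cytokine induced by hypoxia, was at 1.09, and not called without DMSO library 1 or 2 (1.10 and 1.08), and Ndrg1, a hypoxia target, fell (-0.48, SE 0.07). Of 21 tested p53 targets, 3 rose and 4 fell, with a median log2 fold change of 0.00. Counts of 3 and 4 (median 0.02) were found without azoramide library 3, and 1 and 3 (median -0.12) with the offset. Of 21 tested amino acid and glucose transporters, 1 rose and 6 fell, with a median log2 fold change of -0.11. Counts of 0 and 6 (median -0.15) were found without azoramide library 3, and 1 and 4 (median -0.03) with the offset. Slc36a1, a lysosomal amino acid transporter, was at -0.76, SE 0.10. Of 17 tested histone genes, 4 rose and 3 fell, with a median log2 fold change of 0.00. Counts of 4 and 3 (median 0.06) were found without azoramide library 3, and 3 and 7 (median -0.18) with the offset. The linker histone H1fx fell (-1.13, SE 0.19). Of 14 tested long noncoding RNAs, 4 rose and 0 fell, with a median log2 fold change of 0.17. Counts of 4 and 1 (median 0.18) were found without azoramide library 3. Gas5, which hosts small nucleolar RNAs, was at 91.4 and 103 CPM with DMSO and 143, 174 and 169 CPM with azoramide (log2 fold change 0.74, SE 0.10, adjusted p = 4.2e-05 by edgeR). The offset moved Ndrg1 to -0.24, Slc36a1 to -0.48 and Gas5 to 0.39.

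Direction went with transcript length. When genes were split into 5 groups of equal size by exonic length, the share of called genes that rose was 89.97% in the shortest group (168 to 2306 bases), then 65.7%, 47.4% and 35.7%, and 25.2% in the longest. The median log2 fold change fell from 0.29 in the shortest group to -0.16 in the longest, with 0.09, -0.03 and -0.10 between, and all 3 azoramide libraries showed this. Within libraries, the slope of log2 level per doubling of length, relative to the mean of all libraries, was 0.10 and 0.109 with DMSO and -0.075, -0.076 and -0.031 with azoramide. Genes that rose by at least 2-fold had a median exonic length of 2472 bases and a median GC content of 47.7%, those that fell by at least 2-fold 4890 bases and 54.6%, and all tested genes 4269 bases and 50%. The part of RNA quality or library preparation in this trend was not tested.

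**Figure D4:**
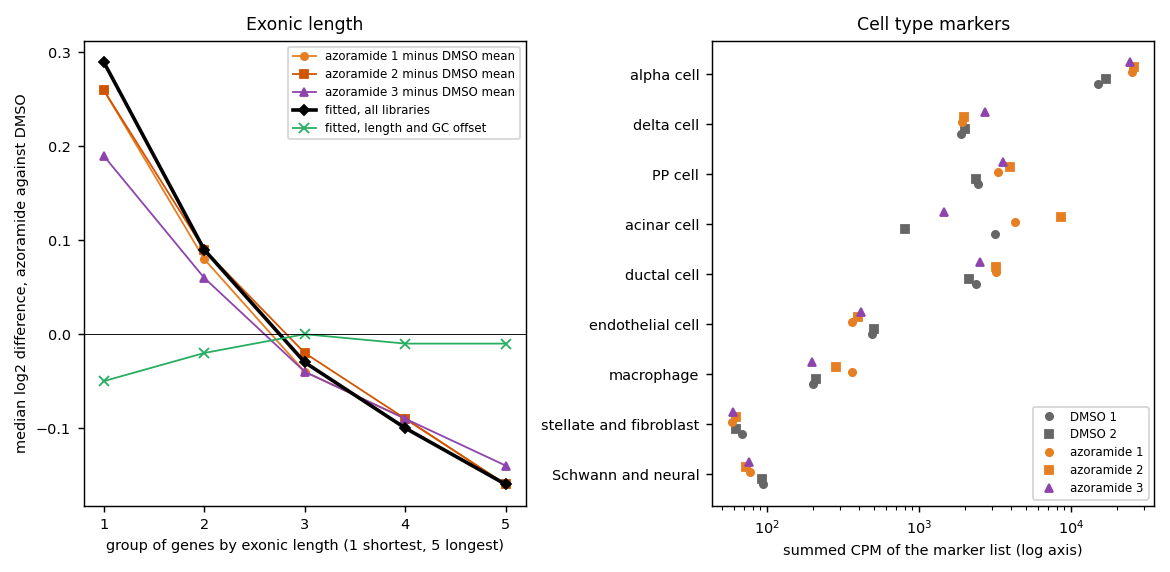
Left, median log2 difference of azoramide against DMSO by group of genes by exonic length, for each azoramide library, for the fit with all libraries (0.29 to -0.16) and under the correction for length and GC. Right, summed CPM of each list of cell type markers in the 5 libraries on a log axis; the acinar sum spans 800.3 to 8537 CPM and overlaps between treatments.

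Promoter letters of the genes that changed by at least 2-fold were counted as a description. RefSeq promoters were matched by symbol and chromosome for 11545 tested genes, among them 200 that rose and 131 that fell by at least 2-fold, and the 250 bases before each start were searched on both strands for 12 motifs picked with results of these data in view. An AP-1 site (TGACTCA or TGAGTCA) was held by 24 of the 200 rising promoters (12%), 4 of the 131 falling (3.05%) and 3.13% of all. Hamp, Nts, Mt2, Dhrs9, Fgb and Cd68 were among the 24. The heat shock element GAANNTTC was found in 7%, 3.05% and 4.89% of rising, falling and all promoters, and an interferon response element in 4.5%, 0.763% and 2.62%. The core GCGTG, printed above for Cyp1a1, was in 36%, 36.6% and 44.4%, the metal response element in 20.5%, 29% and 30.1%, and the cAMP response element TGACGTCA in 3%, 3.05% and 2.72%. The ER stress response element was in 2 rising promoters (1%), 0 falling and 0.147% of all. The TATA box TATAAA was in 9.5%, 3.82% and 6.70%, the E box CACGTG in 8%, 8.40% and 8.20%, and the TCF site ATCAAAG in 1.5%, 3.05% and 2.24%. The core GCGTG lies within those metal response elements that read GCGTGCA on 1 strand. A match is a description of these letters only.

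Whether these changes differed from those in control islets was asked with the interaction, the azoramide effect in labelled knockout minus that in control islets. No gene passed (0 of 15093, 0%; smallest edgeR adjusted p = 0.999), 563 (3.73%) had an unadjusted p under 0.05, and DESeq2 also called 0. In control islets 5893 genes were called (39%). Of the genes called with each label, 4733 were shared, 78.8% of the labelled knockout calls and 80.3% of the control calls, and all 4733 had the same direction. Across the 9870 genes with a mean log2 CPM of at least 3, Pearson's r between the 2 sets of fold changes was 0.91, and across all genes it was 0.60; genes are not independent replicates. Of the 469 genes that changed by at least 2-fold in labelled knockout islets, 432 had a smaller fold change in control islets, a count that the choice of genes by size favours and that was not tested.

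**Figure D5:**
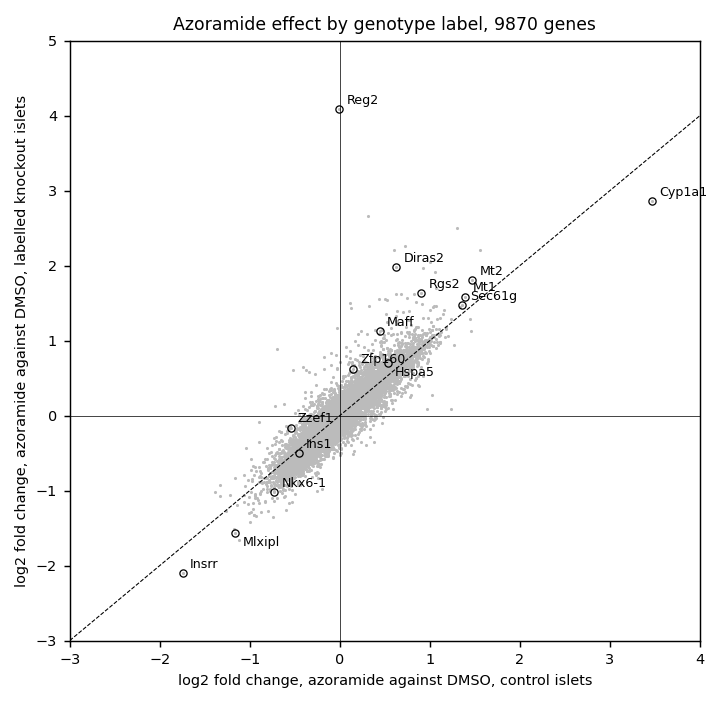
Log2 fold change of azoramide against DMSO in labelled knockout islets (vertical axis) and in control islets (horizontal axis) for 9870 genes with a mean log2 CPM of at least 3, each point a gene; the dashed line marks equal values. Cyp1a1 lies below the line and Reg2, an acinar marker that passed in neither, far above it.

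Values with each label can be set side by side. Cyp1a1 was at 2.86 in labelled knockout and 3.47 in control islets, Mt2 at 1.80 and 1.47, Insrr at -2.10 and -1.74, Nkx6-1 at -1.02 and -0.73, Atp2a3 at -1.02 and -0.81, and Hspa5 at 0.70 and 0.53. Tac1 was at 2.67 and 0.11, and Csf3 at 2.73 and 0.75. None of these pairs differed past the threshold. Among the established genes of smallest p in the interaction were the ankyrin repeat gene Sowahb (-0.95, SE 0.22), the TFIID subunit Taf9 (0.93, SE 0.23), Zfp160 (0.48, SE 0.12), and Dpy19l4 (0.40, SE 0.10), all at an edgeR adjusted p of 0.999. Sowahb was at 9.7 and 9.59 CPM with DMSO and 4.24, 5.39 and 5.47 CPM with azoramide and fell (log2 fold change -0.94, SE 0.17, adjusted p = 2.4e-04 by edgeR), and its value in control islets was 0.01. Zfp160 was at 22.1 and 24 CPM with DMSO and 35.5, 37.3 and 34.1 CPM with azoramide (log2 fold change 0.63, SE 0.09, adjusted p = 4.1e-05 by edgeR), and at 0.15 in control islets.

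Leaving out any 1 library gave at most 1 call in the interaction. Without azoramide library 3 the angiogenin gene Ang passed (0.92, edgeR adjusted p = 0.0498), and without Control_DMSO 2 the Y-linked Gm47283 (-0.91, edgeR adjusted p = 0.0131). With both left out 6 genes passed: Rgs17 (0.50), Serping1 (0.60), Rgs2 (0.80), Ang (0.85), Gm47283 (-0.98) and Lgi2 (-1.12). Positive values mean a higher log2 fold change in labelled knockout islets. Rgs2 and Rgs17 encode regulators of G protein signalling, Serping1 the complement C1 inhibitor and Lgi2 a secreted protein of neurons. Which Ang copy produced the reads is uncertain, since the angiogenin family has near-identical members.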

How the data were processed

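Whole islets were profiled by RNA-seq. The deposited table holds whole-number counts per gene for 11 libraries; per the submitters' processing notes STAR 2.7.2a, DESeq2 and mm10 were used, and which counter, annotation or strand mode was used is not given in the sources used here. Names and positions came from GENCODE M21 (GRCm38), and promoters from RefSeq (GRCm38.p6). Genes were compared with edgeR 4.0.16 (R 4.3.3, limma 3.58.1): TMM, a filter on low counts by group, a robust quasi-likelihood fit of all 11 libraries in 4 groups, and Benjamini-Hochberg adjustment over 15093 genes at 0.05. SE is an approximate standard error, the absolute log2 fold change divided by the square root of edgeR's F statistic. Near-identical copies, antisense and overlapping genes are uncertain. All-library totals were 16832800 to 19501813 counts. On simulated data (14829 genes, labelled knockout comparison) 58.2%, 70.1% and 87.9% of genes changed 1.5-fold, 2-fold and 4-fold were recovered. Far fewer genes were changed there than were called here, and no length trend or deviating library was simulated. These shares therefore need not hold for the real data.

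The comparison and the 64 gene lists were chosen with earlier results of these data known. Named genes were Zzef1, the 20 largest called changes in each direction (established symbol, mean log2 CPM of at least 1, no overlap between groups), up to 4 called genes of smallest p per list or 2 where none was called, the 5 established genes of smallest interaction p, and fixed hormones and stress genes, plus 13 chosen after values were seen. The 12 motifs were also chosen with results known. Of the labelled knockout libraries, no 2 with the same treatment agreed within sampling noise, and other pairs were not checked. Alternatives were DESeq2 1.42.0, its size factors, plain totals, no filter, labelled knockout libraries alone, the replicate block, each library left out, and an offset per library for smooth trends (5 degrees of freedom) with length and GC. Treatment was not a term in the fit of this offset. Whether the numbers of the labels pair the samples could not be settled, and they were not taken as pairs. With 3 against 2 libraries no exact permutation test can pass 0.05, so single values rest on the fit across genes. A few results are not reported here.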

Additional observations from a re-analysis of the deposited data

How the results depend on the processing

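Of 281 genes named by rule, 272 were called, and 180 of these kept their call in every alternative that gave a value. Since the rule takes small p and large changes in these same libraries, it favours keeping a call. Without azoramide library 3 270 kept it and 2 lost it (Dhrs9 and Lama3), and with the length and GC offset 203 kept it and 69 lost it. Plain library totals ended 14 calls, leaving out DMSO library 1 or 2 ended 28 or 33, and the replicate block 7. Leaving out either DMSO library leaves 1 in that group, so calls lost there can reflect fewer libraries. The count of 6006 genes became 3729 with the offset, and that of 469 genes changed by at least 2-fold became 254. Leaving out 1 library gave 4015 to 6507 and 330 to 701, and leaving out azoramide library 3 and Control_DMSO 2 together gave 777 for the latter. For the interaction, leaving out 1 library gave 0 to 1 calls and leaving out those 2 together 6.

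Same-numbered labelled knockout libraries had deviations correlated at 0.08 and -0.31, and control libraries at 0.12, 0.18 and 0.02. Control libraries of different numbers were at -0.17 to 0.11. Deviations of 2 DMSO libraries from their mean mirror each other, so the labelled knockout values cannot decide whether the numbers are pairs. The numbers were not taken as pairs, and pairing is not excluded. With the replicate block 6162 genes were called and the interaction had 1 call, Reg3a. Under the block Cd79a was at 0.075 and Sst at -0.057, both with the sign turned.

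Signs also turned with the offset for Gc (-0.03), Iapp (-0.155), Ltbp3 (0.116), Plxnb1 (0.051), Ptprf (0.039), Sar1b (-0.033), Scg5 (-0.102), Slc38a10 (0.123), Sst (-0.268), Ube2j1 (-0.005), Zzef1 (0.192), mt-Atp6 (-0.229), mt-Atp8 (-0.448), mt-Co2 (-0.216) and mt-Nd2 (-0.143). Plain totals gave -0.019 for Sst. Leaving out 1 library gave -0.252 to 2.033 for Alas2, -0.496 to 0.694 for Cd79a and -0.058 to 0.23 for Sst. Without azoramide library 3 and Control_DMSO 2 Cd79a was at 0.03 and Sst at -0.057. The cause was not tested for any of these. With 2 DMSO libraries, precision for genes of low count is limited, as for Gal, Hamp and Mmp12.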
